A study of Mus musculus with 18 samples.

Results

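The genes described here are 10 genes of activin and BMP signalling, chosen by gene symbol from among 21018 genes listed in at least 1 of the 3 count tables. All 10 were listed in each table and had reads in each kit. They are the activin subunit genes Inhba, Inhbb, Inhbc and Inhbe, the activin receptor genes Acvr1b and Acvr2a, the inhibitor gene Fst, the inhibitory SMAD genes Smad6 and Smad7, and Id1, a BMP target gene. RNA-Seq was performed on liver RNA from 6 male C57/B6J mice of 12 weeks, collected 4 hours after an intraperitoneal injection of saline or of 20 µg/kg IL-1β, an inflammatory cytokine to which hepatocytes respond by making acute-phase proteins. The 3 IL-1β mice are numbered ILB.9579, ILB.9582 and ILB.9583, and the 3 saline mice UNT.9574, UNT.9575 and UNT.9576. RNA of each mouse entered the Pico kit (stranded total RNA), the V4 kit (unstranded, poly(A)) and the TruSeq kit (stranded, poly(A)), giving 18 libraries. Values of 1 mouse in 3 kits are therefore repeated measurements of the same RNA and not 3 independent experiments.

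Activins are dimers of the β subunits that the Inhb genes encode, and they belong to the TGF-β family together with the BMPs. The ligand binds a type II receptor such as the product of Acvr2a, which activates a type I receptor such as ALK4, the product of Acvr1b. The receptors phosphorylate SMAD proteins, which enter the nucleus with SMAD4 and regulate genes, SMAD2 and SMAD3 for activin and SMAD1, SMAD5 and SMAD9 for BMPs. Follistatin, encoded by Fst, binds activin outside the cell, and SMAD6 and SMAD7 inhibit the pathway inside it. In the liver, Inhbc and Inhbe are made mainly by hepatocytes, and BMP signalling drives the hepcidin gene Hamp.

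A Pico library held 4024632 to 4134070 gene counts, a V4 library 12013453 to 12352473 and a TruSeq library 12348864 to 12858237. The hepatocyte markers were detected in every kit (8 of 8), with a summed level of 69761 to 76078 CPM (counts scaled to an equal library total) in the IL-1β mice and 95297 to 112560 in the saline mice in TruSeq. Neutrophil markers were at 34.5 to 73.3 CPM after IL-1β and 1.72 to 3.00 after saline in TruSeq, with 7 of 8 detected and Mpo at 0, while V4 (6 of 8) also had Ly6g at 0 and Pico (4 of 8) also Ly6g, Elane and Camp. The summed Kupffer cell markers were lower after IL-1β (65.8 to 101 against 135 to 214 CPM), as were those of the sinusoidal endothelium (145 to 184 against 253 to 284) and of stellate cells (177 to 229 against 312 to 357), and these ranges did not overlap in Pico or V4 either. By limma-voom, as described below, 2 of 8 hepatocyte markers were called higher and 4 lower in TruSeq, 2 and 6 in Pico, and 1 and 4 in V4. The summed hepatocyte level thus does not stand for each marker. For the Kupffer cell markers, 1 of 8 was called higher in TruSeq and 4 lower. Of 8 endothelial markers, 1 was called higher and 5 lower in TruSeq, 2 and 4 in Pico, and 0 and 3 in V4. Of 8 stellate cell markers, 0 were called higher and 5 lower in TruSeq. Over all genes, 12.3% were called higher and 21.8% lower in TruSeq, 6.78% and 10.8% in Pico, and 3.6% and 7.41% in V4. In whole liver, fewer cells of a type cannot be told apart from less RNA per cell, and the part of these shifts in the results that follow was not tested. Scaling by TMM factors in place of library totals shifted the median log2 fold change over all genes up, by 0.16 from -0.17 in TruSeq, by 0.17 from -0.22 in V4 and by 0.13 from -0.12 in Pico.

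The start sites are shown first, for the 4 subunit genes, whose values after IL-1β are set against each other here, and for Acvr1b, the receptor gene that rose. In mm9, Inhba lies on chr13:16103684-16119044 (plus strand), Inhbb on chr1:121312042-121318825 (minus), Inhbc on chr10:126793384-126807600 (minus) and Inhbe on chr10:126786458-126788828 (minus). Inhbe and Inhbc are adjacent, with 4555 bases between them on the same strand. Acvr1b lies on chr15:101004556-101043032 (plus). The 250 bases before each start are from RefSeq's table for GRCm38.p6, from which windows of 7 of the 10 genes were taken (not Fst, Smad7 or Id1). Each matched mm9 at 1 place and is written here 5′ to 3′ on the gene's strand. Windows and motif positions are relative to the RefSeq start, which for Inhbc, Inhbe and Acvr1b differs from the gene start given above. Capitals mark the motifs found on either strand.
Inhba (chr13:16103434-16103683): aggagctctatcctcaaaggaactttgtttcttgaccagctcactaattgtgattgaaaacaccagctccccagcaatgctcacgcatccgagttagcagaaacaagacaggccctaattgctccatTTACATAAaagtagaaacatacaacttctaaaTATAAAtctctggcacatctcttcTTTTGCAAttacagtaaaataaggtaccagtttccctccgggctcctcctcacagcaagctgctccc
Inhbb (chr1:121318826-121319075): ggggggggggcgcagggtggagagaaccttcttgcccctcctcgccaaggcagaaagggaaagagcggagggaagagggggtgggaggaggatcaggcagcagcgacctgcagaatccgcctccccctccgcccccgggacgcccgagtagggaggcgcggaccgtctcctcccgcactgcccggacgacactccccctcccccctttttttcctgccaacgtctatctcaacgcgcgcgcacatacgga
Inhbc (chr10:126807605-126807854): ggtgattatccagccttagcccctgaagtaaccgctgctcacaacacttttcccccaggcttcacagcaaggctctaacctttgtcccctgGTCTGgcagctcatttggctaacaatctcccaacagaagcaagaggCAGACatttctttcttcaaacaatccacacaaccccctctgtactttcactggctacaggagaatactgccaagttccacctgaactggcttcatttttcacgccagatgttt
Inhbe (chr10:126788905-126789154): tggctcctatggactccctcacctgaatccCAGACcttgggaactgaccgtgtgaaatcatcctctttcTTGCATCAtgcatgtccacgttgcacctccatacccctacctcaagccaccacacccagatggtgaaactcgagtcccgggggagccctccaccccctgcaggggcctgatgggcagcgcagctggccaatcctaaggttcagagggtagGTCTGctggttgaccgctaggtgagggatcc
Acvr1b (chr15:101004253-101004502): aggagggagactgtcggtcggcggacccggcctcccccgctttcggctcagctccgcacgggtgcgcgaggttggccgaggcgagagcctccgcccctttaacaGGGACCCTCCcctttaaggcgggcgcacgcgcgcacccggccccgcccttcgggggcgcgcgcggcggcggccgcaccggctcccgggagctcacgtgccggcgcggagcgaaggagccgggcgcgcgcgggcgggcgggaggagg

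The windows differed in composition, with a GC content of 43.2% for Inhba, 48.8% for Inhbc, 58.8% for Inhbe, 68.0% for Inhbb and 78.8% for Acvr1b, against a median of 52.4% over 32851 windows. Only the Inhba window among these 5 held the TATA box letters TATAAA (bases -91 to -86, counted back from the base before the start), which 12.37% of all windows held. It also held the C/EBP letters TTNNGNAA at 2 places (36.85% of windows). The SMAD box CAGAC stood at 2 places in the Inhbc window and at 2 in the Inhbe window (42.19% of windows). The Inhbe window also held TGATGCAA, a composite of C/EBP and ATF sites (bases -181 to -174), which 0.79% of windows held and which was added to the search after the windows had been read. The Acvr1b window held an NF-κB site (bases -146 to -137), as 7.25% of windows did. The Inhbb window matched none of the motifs searched, which also included GGCGCC (9.59% of windows), TGANTCA for AP-1 (6.75%) and TTCNNNGAA for STAT factors (7.02%). These matches describe letters in the windows and do not show that a factor binds there.

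Within the group, Inhbc and Inhbe had by far the highest levels in the saline mice. Per kilobase of exon, Inhbc was at 36.6 ± 2.97 CPM per kb in Pico, 62.7 ± 4.60 in V4 and 43.0 ± 1.46 in TruSeq (SD, n = 3). Inhbe followed at 21.6 ± 6.33, 20.3 ± 5.12 and 23.4 ± 6.25 CPM per kb. In each kit the libraries of these 2 genes did not overlap with each other or with the next gene, which was Smad7 at 5.43 ± 2.64 in Pico, Id1 at 8.15 ± 2.48 in V4 and Acvr2a at 4.92 ± 0.24 in TruSeq. In TruSeq, Acvr1b came next at 3.24 ± 0.52, below every Acvr2a library, and its range overlapped that of Id1 (2.11 ± 0.74). The ranges of Id1, Inhba (1.70 ± 1.30), Smad7 (1.52 ± 0.37), Fst (1.07 ± 0.31) and Smad6 (0.99 ± 0.35) each overlapped that of the next gene in this order, although every Id1 library was above every Fst and every Smad6 library. Inhbb was lowest in TruSeq (0.28 ± 0.04) and, with a range that overlapped that of Acvr1b (0.18 ± 0.20), in V4 (0.03 ± 0.03), and Fst was lowest in Pico (0.75 ± 0.72), where its range overlapped that of Inhbb (0.86 ± 0.55).

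Treatment with IL-1β was then compared with saline within each kit by limma-voom on library totals, with adjustment over all genes of the kit and a call at an adjusted p of at most 0.05. In TruSeq, 2 of the 10 genes rose (Inhbb and Acvr1b) and 3 fell (Inhba, Inhbc and Acvr2a), where 12.3% of all genes tested were called higher and 21.8% lower. In Pico, 2 rose (Inhbb and Acvr1b) and 2 fell (Inhba and Inhbc), where the background was 6.78% higher and 10.8% lower. In V4, none rose and 1 fell (Inhbc), against 3.6% of all genes higher and 7.41% lower. V4 had 0 members called higher with edgeR too, under either scaling, and 1 with DESeq2, while 1 member had a positive change at an unadjusted p under 0.05 (Inhbb). The groups did not overlap for 6 of the 10 genes in TruSeq, 5 in Pico and 4 in V4, beside 44.9%, 31.2% and 27.6% of all genes. These counts are of a short list, and nothing particular to it is read from them. The median log2 fold change of the 10 genes was 0.02 in TruSeq, -0.32 in Pico and -0.30 in V4.

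**Figure D1:**
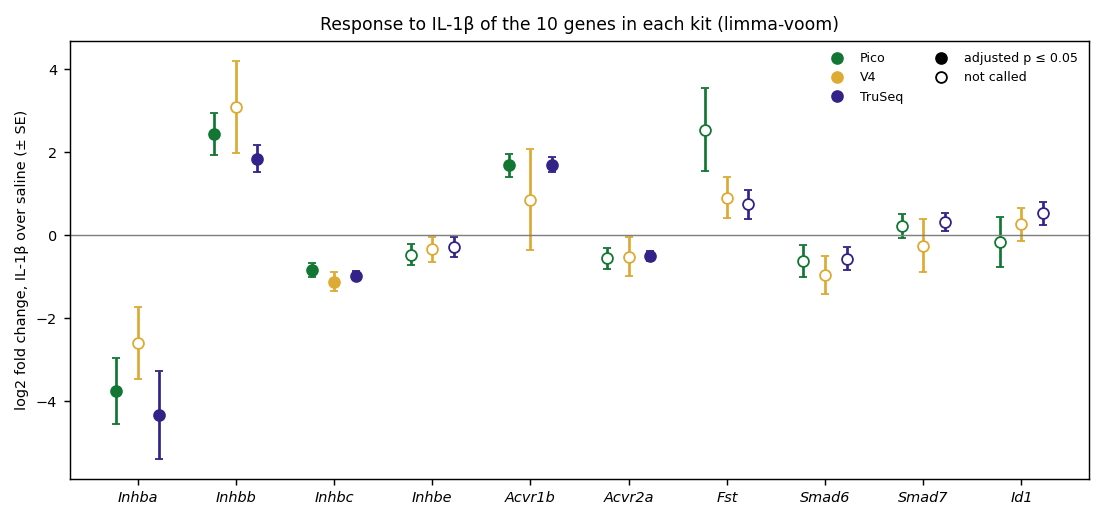
Log2 fold change of IL-1β over saline (y axis) for each of the 10 genes (x axis) in each kit, with bars of 1 standard error of the limma-voom fit and filled points for an adjusted p of at most 0.05. Inhbb sits above 0 and Inhba and Inhbc below 0 in every kit, and the V4 bar of Acvr1b crosses 0.

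Among the ligand subunits, Inhba and Inhbb moved in opposite directions. Inhba encodes the βA subunit of activin A. In Pico it had 14, 13 and 41 counts in the saline mice and 2, 2 and 0 in the IL-1β mice, with the mice of each group in the order of their numbers here and throughout. In TruSeq it had 39, 12 and 78 counts after saline and 3, 2 and 0 after IL-1β. Every IL-1β library was below every saline library in both kits. The log2 fold change was -3.76 in Pico (SE 0.79, limma-voom adjusted p = 0.00302) and -4.33 in TruSeq (SE 1.06, adjusted p = 0.0112). Since few reads remained after IL-1β, the summed counts are also given as a ratio of saline to IL-1β, which was 16.7 in Pico (68 against 4 counts, 95% counting interval 6.23 to 63.0) and 25.04 in TruSeq (129 against 5 counts, 10.5 to 78.4). Intervals of this kind cover counting error only.

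In V4 the saline libraries held 43, 33 and 109 Inhba counts and the IL-1β libraries 3, 31 and 6. Mouse ILB.9582 thus had 31 counts in V4 where the same RNA gave 2 counts in each of the other kits. The groups still did not overlap, but the log2 fold change of -2.60 (SE 0.87) did not pass (limma-voom adjusted p = 0.0815). It did pass in the fit of all 18 libraries with the mouse as a replicate block (-2.60, adjusted p = 0.0179). That fit shares a variance per gene over the 3 kits, with a correlation of 0.126 within a mouse. Its V4 values come from the same V4 libraries and are no further evidence. The call of Inhba rested on individual mice. In Pico it was lost without mouse ILB.9583 (log2 fold change -2.98, adjusted p = 0.0693), and in TruSeq without UNT.9574 (adjusted p = 0.0637), ILB.9579 (0.0545), ILB.9582 (0.0692) or ILB.9583 (0.0923), at log2 fold changes from -4.88 to -3.47.

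Inhbb encodes the βB subunit of activin B. It had 24, 16 and 5 counts after saline and 89, 52 and 69 after IL-1β in Pico. In TruSeq it had 17, 16 and 13 counts after saline and 78, 44 and 46 after IL-1β. All IL-1β libraries were above all saline libraries, and mouse ILB.9579 was the highest in both kits. Inhbb rose by a log2 fold change of 2.43 in Pico (SE 0.50, limma-voom adjusted p = 0.00256) and 1.84 in TruSeq (SE 0.32, adjusted p = 0.00192). In V4 it was close to the limit of detection, with 2, 3 and 0 counts after saline and 57, 5 and 8 after IL-1β. Here mouse ILB.9579 held most of the reads, the log2 fold change was 3.10 (SE 1.11, adjusted p = 0.104), and the ratio of the summed counts was 14.1 (70 against 5, 95% counting interval 5.75 to 44.7). Thinned to the depth of Pico, TruSeq no longer called Inhbb (log2 fold change 1.07, adjusted p = 0.0779), and DESeq2 did call it in V4 (3.94, adjusted p = 0.0201), as did the fit of all 18 libraries with the mouse as a replicate block (3.10, adjusted p = 0.0116). The V4 value stayed positive and uncalled but was smaller after thinning (1.35, adjusted p = 0.530), without ILB.9579 (2.07, adjusted p = 0.319) and without UNT.9576 (2.23, adjusted p = 0.321).

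The ratios of the subunit genes were taken from the counts within a library, so no scaling factor enters them. Where 1 count is added, as for Inhba and Inhbb, the ratio still depends on depth when a gene has few or no counts. The log2 ratio of Inhba to Inhbb, with 1 count added to each, was 0.60 ± 1.93 after saline and -5.06 ± 1.002 after IL-1β in Pico (SD, n = 3). In V4 it was 4.58 ± 1.95 and -0.60 ± 3.14, and in TruSeq 1.09 ± 1.44 and -4.59 ± 0.86. The difference was -5.66, -5.18 and -5.68, with no overlap between the groups in any kit. Since the counts of each gene alone did not overlap and lay in opposite directions, the ratio had to separate, and it is given as a description with no test.

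**Figure D2:**
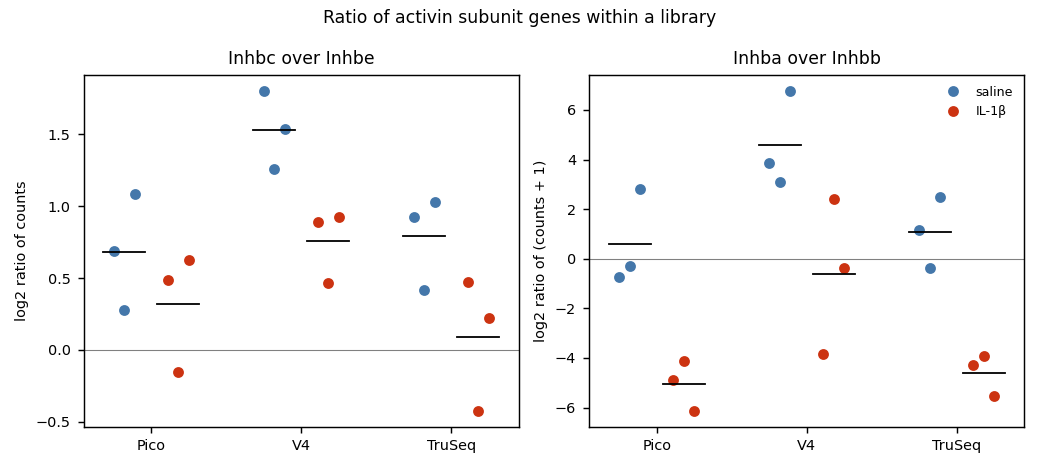
Log2 ratio of the counts of Inhbc to Inhbe (left y axis) and of Inhba to Inhbb with 1 count added to each (right y axis) in each library, by kit (x axis) and treatment, with 3 mice per group and a bar for the mean. For Inhba over Inhbb every IL-1β library lies below every saline library of its kit, and for Inhbc over Inhbe the groups overlap in Pico and TruSeq and not in V4.

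Inhbc, which encodes the βC subunit, fell in all 3 kits. In Pico it had 267, 306 and 316 counts after saline and 133, 171 and 188 after IL-1β. In V4 it had 1453, 1612 and 1429 against 472, 769 and 886, and in TruSeq 1080, 1111 and 1045 against 488, 507 and 599. The groups were far apart in each kit, and mouse ILB.9579 was the lowest each time. The log2 fold change was -0.84 in Pico (SE 0.17, limma-voom adjusted p = 0.00261), -1.12 in V4 (SE 0.22, adjusted p = 0.00984) and -0.98 in TruSeq (SE 0.11, adjusted p = 0.000125). The call in V4 was lost without saline mouse UNT.9575 (log2 fold change -1.06, adjusted p = 0.0595).

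Its neighbour Inhbe, which encodes the βE subunit, was not called in any kit. In TruSeq it had 568, 833 and 513 counts after saline and 351, 680 and 514 after IL-1β. In V4 these were 416, 673 and 493 against 255, 558 and 467, and in Pico 166, 253 and 149 against 95, 190 and 122. The groups overlapped in every kit, while the order of the mice was much the same, with UNT.9575 the highest of the saline mice and ILB.9579 the lowest of the IL-1β mice each time. The log2 fold change was -0.47 in Pico (95% interval -1.01 to 0.06), -0.35 in V4 (-1.01 to 0.32) and -0.28 in TruSeq (-0.83 to 0.26). The log2 ratio of Inhbc to Inhbe was 0.68 ± 0.41 after saline and 0.32 ± 0.41 after IL-1β in Pico (SD, n = 3; exact permutation p = 0.4), 1.53 ± 0.27 and 0.76 ± 0.26 in V4 (p = 0.1), and 0.79 ± 0.33 and 0.09 ± 0.46 in TruSeq (p = 0.2). The difference was -0.78 in V4, -0.70 in TruSeq and -0.36 in Pico. The groups of this ratio did not overlap in V4 and overlapped in the stranded kits, and with 3 mice against 3 the test cannot go below 0.1.

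Of the receptors, Acvr1b rose in the stranded kits. In Pico it had 29, 56 and 54 counts after saline and 160, 144 and 124 after IL-1β, and in TruSeq 154, 140 and 113 against 488, 452 and 349. The groups were well separated, and the log2 fold change was 1.69 in Pico (SE 0.28, limma-voom adjusted p = 0.000386) and 1.70 in TruSeq (SE 0.17, adjusted p = 8.84e-05). These calls held in all 13 alternatives of each kit. In V4 the gene was barely read, with 6, 0 and 16 counts after saline and 12, 5 and 4 after IL-1β, and the groups overlapped. The log2 fold change there was 0.85 (SE 1.22, 95% interval -1.82 to 3.53), an interval that includes both 0 and the values of the other kits. Over the 6 mice its level in V4 was 0.026 of that in TruSeq (0.588 against 22.7 CPM), lower in 6 of 6 mice. The study had picked Acvr1b for a difference between kits, so this ratio is a description.

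Acvr2a encodes a type II receptor for activins and some BMPs. In TruSeq it had 337, 358 and 378 counts after saline and 245, 273 and 221 after IL-1β, and fell by 0.50 on the log2 scale (SE 0.12, limma-voom adjusted p = 0.00956). In Pico it had 115, 114 and 114 counts after saline and 102, 54 and 79 after IL-1β, with a log2 fold change of -0.56 (SE 0.24, adjusted p = 0.131). The groups did not overlap in either kit, and the saline mice of Pico were almost equal while the IL-1β mice were spread. In V4 the values overlapped (65, 110 and 50 against 65, 62 and 29), with a log2 fold change of -0.52 (SE 0.47, adjusted p = 0.562). The call in TruSeq was lost with DESeq2 (log2 fold change -0.34, adjusted p = 0.0707) and in the fit of all 18 libraries with the mouse as a replicate block (-0.50, adjusted p = 0.0612). V4 gave 0.219 of the TruSeq level, lower in 6 of 6 mice. The exons of Acvr2a (chr2:48669629-48758789, plus strand) share 446 bases with those of Orc4 on the opposite strand, and the unstranded V4 counts cannot tell the strands apart.

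**Figure D3:**
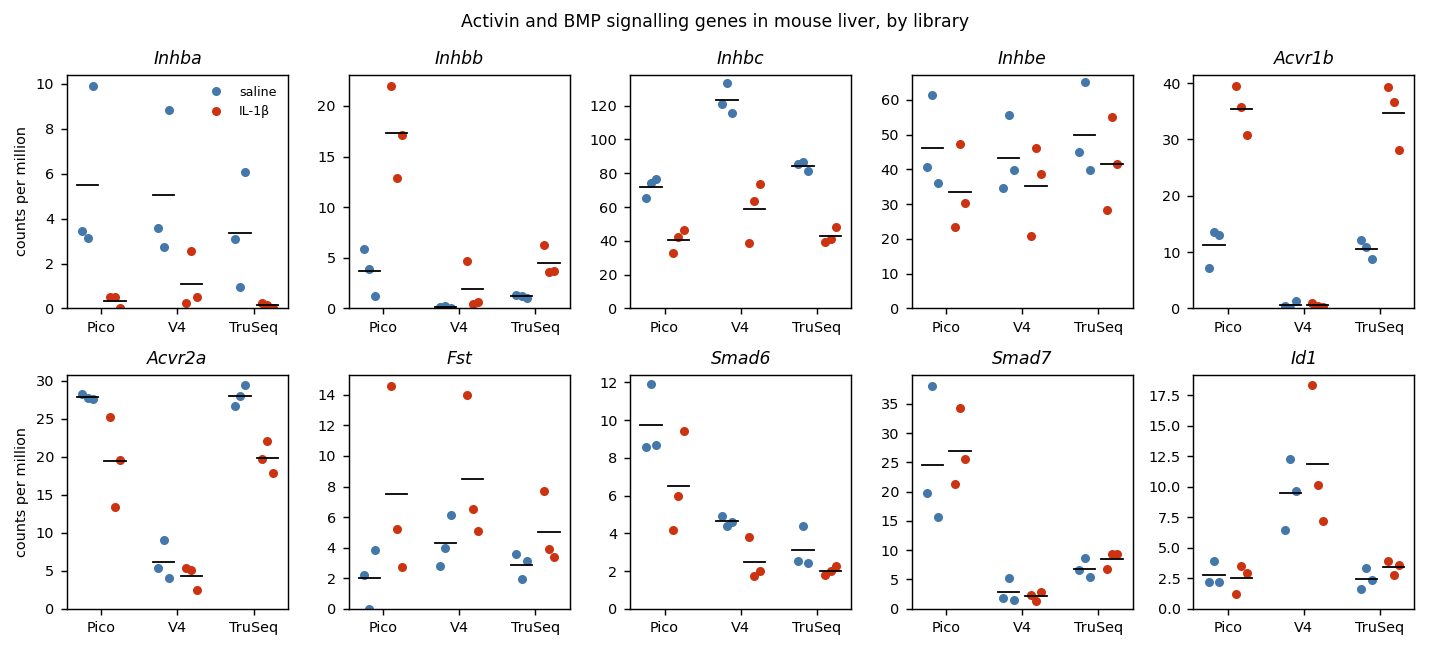
CPM (y axis, from 0) of the 10 genes in each of the 18 libraries, by kit (x axis) and treatment, with 3 mice per group and a bar for the mean. Acvr1b lies between 28 and 40 CPM in the IL-1β libraries of Pico and TruSeq and near 0 in V4, and mouse ILB.9579 is the highest Fst library of each kit.

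Fst encodes follistatin, which neutralises activins. Mouse ILB.9579 had the most reads in every kit, with 59, 170 and 96 counts (Pico, V4, TruSeq). The other IL-1β mice had 48 and 42 counts in TruSeq, 21 and 11 in Pico and 79 and 61 in V4. The saline mice had 45, 25 and 40 counts in TruSeq, 9, 0 and 16 in Pico and 34, 48 and 76 in V4. The groups overlapped in each kit, and apart from ILB.9579 the IL-1β mice lay in or close to the range of the saline mice in TruSeq. The log2 fold change was 2.55 in Pico (SE 1.01, limma-voom adjusted p = 0.0978), 0.91 in V4 (SE 0.49, adjusted p = 0.293) and 0.74 in TruSeq (SE 0.35, adjusted p = 0.142). The value in Pico was 0.99 without UNT.9575, which had 0 counts, and 3.52 without UNT.9576. The result depended on the test. With TMM factors, edgeR called Fst higher in Pico (log2 fold change 1.999, adjusted p = 0.00128) and TruSeq (0.96, adjusted p = 0.0431), and DESeq2 did so in TruSeq (0.96, adjusted p = 0.0293). On library totals, edgeR also called it in Pico (1.87, adjusted p = 0.00307) and not in TruSeq (0.80, adjusted p = 0.0801). DESeq2 did not call it in Pico (2.01, adjusted p = 0.335).

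The inhibitory SMAD genes were not called in any kit. Smad6, whose product acts mainly on BMP signals, had 32, 56 and 31 counts after saline and 22, 25 and 28 after IL-1β in TruSeq, without overlap. In V4 it had 59, 53 and 57 counts against 46, 21 and 24, also without overlap, and in Pico 35, 49 and 36 against 17, 24 and 38, with overlap. The log2 fold changes were -0.63 in Pico (95% interval -1.43 to 0.18), -0.96 in V4 (-1.99 to 0.07) and -0.56 in TruSeq (-1.21 to 0.08). Smad7, whose product acts on activin, TGF-β and BMP signals, had 83, 111 and 69 counts after saline and 84, 116 and 116 after IL-1β in TruSeq. In Pico it had 81, 157 and 65 against 86, 138 and 103, and in V4 23, 63 and 18 against 29, 15 and 34. The groups overlapped throughout, and the saline mouse UNT.9575 was the highest of all mice in Pico and V4. The log2 fold changes were 0.21 in Pico (95% interval -0.41 to 0.83), -0.26 in V4 (-1.66 to 1.40) and 0.32 in TruSeq (-0.16 to 0.79).

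Id1 encodes a transcription regulator that BMP signals raise through SMAD1 and SMAD5. It had 21, 43 and 30 counts after saline and 49, 34 and 45 after IL-1β in TruSeq. In V4 it had 78, 148 and 119 against 223, 122 and 87, and in Pico only 9, 16 and 9 against 5, 14 and 12. The groups overlapped in every kit, and ILB.9579 was the highest mouse in V4 and TruSeq but the lowest in Pico. The log2 fold changes were -0.17 in Pico (95% interval -1.45 to 1.11), 0.27 in V4 (-0.61 to 1.14) and 0.52 in TruSeq (-0.11 to 1.16). The sign in Pico turned with TMM factors in edgeR (0.03) and with DESeq2 (0.02). V4 gave more of this short gene of 1 exon than TruSeq, by a ratio of 3.62, in 6 of 6 mice.

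The other levels also differed by kit, as a description, since each table was normalized separately and kit cannot be told apart from RNA input, read length, sequencer and time of sequencing. Pico gave 3.67 times the TruSeq level of Inhbb, 3.17 times that of Smad6 and 3.36 times that of Smad7, each in 6 of 6 mice. V4 gave 0.36 of the TruSeq level of Inhbb and 0.326 of that of Smad7, lower in 6 of 6 mice. Inhbe differed least from kit to kit, at 0.87 of the TruSeq level in Pico and 0.86 in V4.

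Whether the response to IL-1β itself differed between kits was asked with the interaction term of a fit to the 12 libraries of each pair of kits. That fit held no term for the mouse, although RNA of the same mice was in both kits. None of the 10 genes was called by limma-voom (0 of 10 in each pair, and 0 of 10 at an unadjusted p under 0.05). Over all genes, 0% were called in each pair, while an unadjusted p under 0.05 was reached by 6.36% for the pair of V4 with TruSeq and by 5.49% for each pair with Pico. edgeR and DESeq2 also called 0 of the 10, with at most 1 at an unadjusted p under 0.05 in a pair. The intervals were wide for the genes with few reads. For Acvr1b, V4 minus TruSeq was -0.85 on the log2 scale (95% interval -3.15 to 1.44), and for Inhba it was 1.73 (-1.22 to 4.67). For Fst, Pico minus TruSeq was 1.81 (-0.52 to 4.13). They were narrow for Inhbc, at 0.15 (-0.26 to 0.55) between Pico and TruSeq and -0.14 (-0.70 to 0.43) between V4 and TruSeq, and for Acvr2a between Pico and TruSeq, at -0.06 (-0.61 to 0.48). With the mouse as a fixed block, 0 of the 10 were called in each pair. For V4 minus TruSeq, Inhba was then at 1.95 (-0.14 to 4.05) and Acvr1b at -1.11 (-3.69 to 1.46). For Pico minus TruSeq, Fst was at 1.41 (-0.29 to 3.11). Inhbe in that pair was at -0.19 (-1.04 to 0.66) without the block and -0.19 (-0.53 to 0.15) with it.

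The other genes of the TGF-β, activin and BMP pathway were taken from a list of 65, of which 60 were tested in TruSeq and 59 in each of the other kits. In TruSeq 9 rose and 20 fell, in Pico 7 rose and 11 fell, and in V4 6 rose and 7 fell, beside 12.3% of all genes higher and 21.8% lower in TruSeq, 6.78% and 10.8% in Pico and 3.6% and 7.41% in V4. The counts by role that follow are to be read against these same shares. Their median log2 fold change was -0.47 in TruSeq, -0.32 in Pico and -0.71 in V4, beside -0.17, -0.12 and -0.22 for all genes. With TMM factors in voom the counts were 10 and 20 in TruSeq, 9 and 10 in Pico and 6 and 6 in V4, and no called gene changed sign. Calls made on library totals were kept for 29 of 29 genes in TruSeq, 17 of 18 in Pico and 12 of 13 in V4. The call lost in Pico and that lost in V4 were each of a ligand. The genes named were called in the same direction in at least 2 kits.

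**Figure D4:**
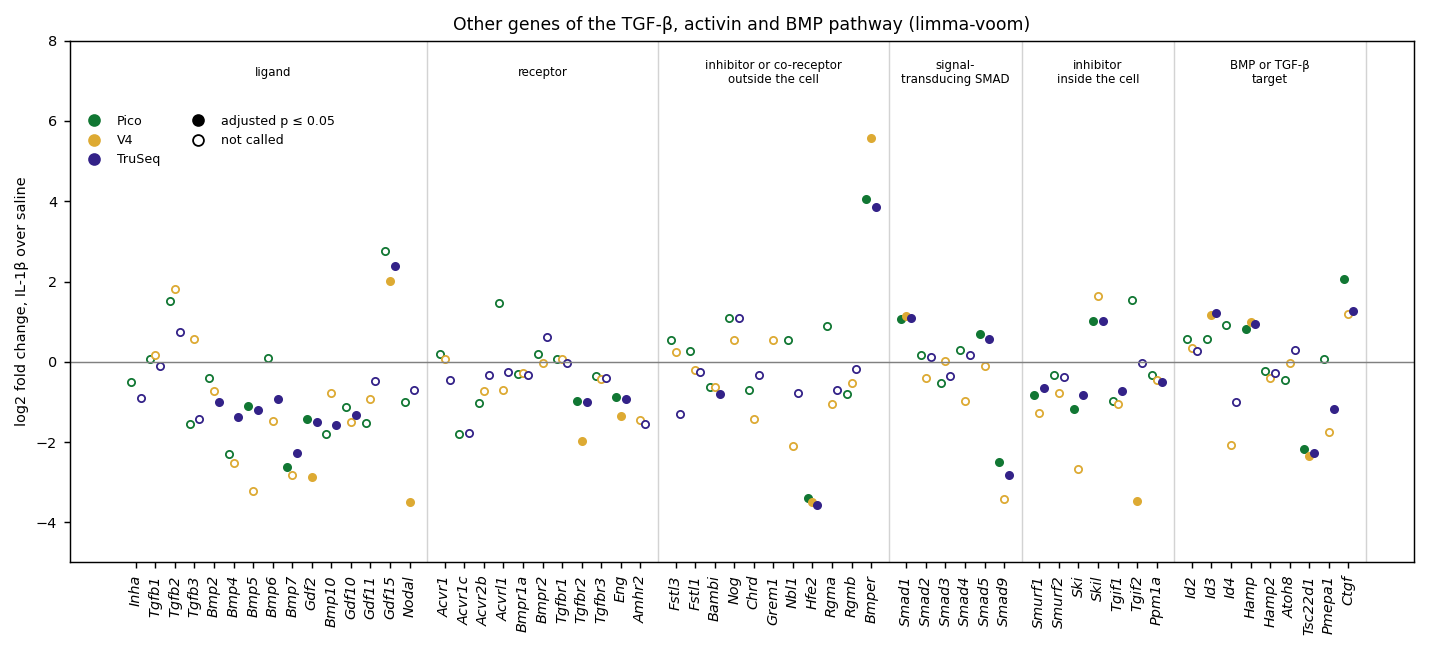
Log2 fold change of IL-1β over saline (y axis) for other pathway genes (x axis, grouped by role), in each kit by limma-voom, with filled points for an adjusted p of at most 0.05. Hfe2 and Tsc22d1 lie below -2 and Bmper above 3 in all 3 kits.

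Of the ligands, 8 of 15 fell and 1 rose in TruSeq, 3 of 15 were called in Pico, each of them lower, and 2 of 14 fell and 1 rose in V4, where 21.8%, 10.8% and 7.41% of all genes were lower. Gdf2, which encodes BMP9, a ligand made in the liver, had 295, 231 and 223 counts after saline and 68, 101 and 86 after IL-1β in TruSeq, and fell in all 3 kits by 1.42 (Pico, limma-voom adjusted p = 0.00367), 2.88 (V4, 0.0337) and 1.51 (TruSeq, 0.00027) on the log2 scale. Bmp5 fell in Pico and TruSeq without overlap of the groups. Bmp7 was called lower in the same kits, but its groups overlapped in Pico. There it had 14, 5 and 12 counts after saline and 1, 5 and 0 after IL-1β (limma-voom adjusted p = 0.042). Gdf15, a stress-induced member of the family, rose by 2.01 in V4 and 2.38 in TruSeq on the log2 scale and had a log2 fold change of 2.75 in Pico (adjusted p = 0.079). Of the receptors, 2 were called in each kit, of 11 tested in TruSeq and 10 in the others, and both fell. These were Tgfbr2, the type II receptor for TGF-β (log2 fold change -1.01 in TruSeq, -0.98 in Pico and -1.98 in V4), and Eng, an endothelial co-receptor (-0.93, -0.87 and -1.35). The summed markers of the sinusoidal endothelium were also lower after IL-1β, as given above, although single markers were called higher in TruSeq and Pico. The part of these markers in the values of Eng was not tested.

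Outside the cell, Hfe2, which encodes the BMP co-receptor hemojuvelin, had 653, 611 and 676 counts after saline and 35, 52 and 77 after IL-1β in TruSeq. It fell in all 3 kits, by 3.58 in TruSeq, 3.40 in Pico and 3.50 in V4 on the log2 scale (limma-voom adjusted p at most 0.000353). Bmper, a BMP-binding secreted protein, went the other way, from 5, 2 and 6 counts after saline to 65, 54 and 69 after IL-1β in TruSeq. It rose by 3.86 in TruSeq, 4.05 in Pico and 5.57 in V4 on the log2 scale. Saline counts were few in Pico too, at 0, 5 and 0 against 16, 20 and 17 after IL-1β. V4 had only 3 saline counts against 136 (ratio 45.5, 95% counting interval 15.3 to 224).

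Among the signal-transducing SMAD genes the 3 members of the BMP branch did not move together. Smad1 had 238, 222 and 197 counts after saline and 534, 476 and 372 after IL-1β in TruSeq, and rose in all 3 kits by 1.06, 1.15 and 1.10 on the log2 scale (Pico, V4 and TruSeq). Smad5 rose by 0.70 in Pico and 0.56 in TruSeq, with -0.10 in V4 (SE 0.56). Smad9 fell in Pico and TruSeq, with log2 fold changes of -2.50 and -2.83. Smad2, Smad3 and Smad4 were not called in any kit. Inside the cell, the ubiquitin ligase gene Smurf1 fell in Pico and TruSeq (-0.83 and -0.66), as did the SMAD repressor gene Ski (-1.17 and -0.83), while the related Skil rose (1.02 in both).

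Of the 10 target genes, 4 rose and 2 fell in TruSeq, and 3 rose and 1 fell in each of Pico and V4. The share of all genes called higher was 12.3% in TruSeq, 6.78% in Pico and 3.6% in V4. Id3, a relative of Id1, had 251, 398 and 428 counts after saline and 711, 722 and 980 after IL-1β in TruSeq, and rose by 1.23 there and by 1.16 in V4 on the log2 scale, with 0.56 in Pico (adjusted p = 0.0751). Hamp rose in all 3 kits by 0.83, 1.004 and 0.94 on the log2 scale (Pico, V4 and TruSeq), with the caveat that its near-identical copy Hamp2 can share its reads. Hamp2 itself was not called in any kit, with log2 fold changes of -0.24, -0.41 and -0.28 in the same order. Ctgf rose in Pico and TruSeq (2.07 and 1.27), and Tsc22d1, a gene induced by TGF-β, fell in all 3 kits (-2.17, -2.34 and -2.27). Hamp and Id3 have regulators outside this pathway as well.

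The genes with the most similar pattern to each member were looked for among the 8960 genes whose mean reached 20 counts in each kit, over the 18 libraries centred within kit. Inhbc had the closest match, with Pearson's r of 0.982 for S1pr5 and 0.974 for Cyp2e1, a cytochrome P450 of hepatocytes. For Inhba the nearest were Nr3c1, the glucocorticoid receptor gene (0.934), and Slc25a23 (0.931), for Inhbb Heg1 (0.915) and Zfyve20 (0.914), for Acvr1b Ctdp1 (0.895) and Wdr43 (0.881), and for Acvr2a Lhfpl2 (0.889) and Elmo3 (0.881). Fst was nearest to Zdhhc13 (0.928) and Ifi35 (0.927), Smad6 to Zranb2 (0.905) and Lipt1 (0.903), and Inhbe to Ints9 (0.88) and Kcnk5 (0.847). Smad7 and Id1 had weaker matches, Mlec (0.876) and Pomgnt1 (0.793) for Smad7, and Gtf2e2 (0.789) and Zfp187 (0.717) for Id1. The members themselves had to reach a mean of 20 counts in TruSeq only. Counting error therefore enters their patterns where reads were few. This holds for Acvr1b and Inhbb in V4, Id1 in Pico, and Inhba after IL-1β in Pico and TruSeq. The 18 points share 6 mice and 2 treatments, and these values are the highest of 8960 searched, so they are a description with no test.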

How the data were processed

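The deposited values were whole read counts per gene, which the authors made by alignment to mm9 with GSNAP, resampling so that libraries of a kit had the same number of reads, and counting per gene with the PORT pipeline. The V4 counts join both strands, those of the stranded kits hold sense reads only, and the 3 tables were made separately. Nothing further was given on which of the Pico preparations the table holds. No molecular identifiers were used, so intervals cover counting error only. Coordinates and exon lengths are those of the mm9 gene annotation. The members, lists and motifs were chosen with earlier results of these data known.

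Each kit was fitted with limma-voom (limma 3.58.1, R 4.3.3) on library totals, over genes with at least 1 count in the kit, with Benjamini-Hochberg adjustment. The interaction of kit and treatment was fitted for each pair of kits. The alternatives were TMM factors in voom, edgeR 4.0.16 (quasi-likelihood, with TMM factors or library totals), DESeq2 (1.42.0), a minimum of 10 counts in 3 libraries, thinning of every library to 4024632 counts, leaving out each mouse and a replicate block for the mouse. The fits were tested on simulated data. Other values were computed in Python 3.11.15 (scipy 1.17.1, pandas 2.3.3, numpy 2.4.6) and plotted with matplotlib 3.10.9. The text names all 10 members, other pathway genes called in the same direction in at least 2 kits, cell type markers at 0, and for each member the 2 genes with the highest correlation. Of the genes this rule names, 2 are not reported here.

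Since all kits used RNA of the same animals, libraries with the same mouse number are pairs across kits. Over 8960 genes, the deviations of the same mouse from its group mean correlated at 0.133 to 0.397 for V4 with TruSeq, 0.188 to 0.427 for Pico with TruSeq and 0.0597 to 0.207 for Pico with V4. Nothing says that mice of 1 group came from separate litters or cages, so p-values measure the spread between these mice. No 2 libraries of a group agreed within sampling noise.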

Additional observations from a re-analysis of the deposited data

How the results depend on the processing

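The number of members called by limma-voom in V4 was 1, and it was 2 with DESeq2, 2 after thinning to equal depth, 3 in the fit of all 18 libraries with the mouse as a random replicate block, and 0 to 1 when a mouse was left out (0 without UNT.9575). In Pico it ranged from 3 to 5 and in TruSeq from 4 to 6 over all alternatives, and from 3 to 4 and 4 to 5 with a mouse left out. Over all genes in V4, the main fit called 649 higher and 1337 lower of 18051, and DESeq2 called 1129 and 1217. Thinning called 563 and 1150 of 16886, and the fit with the random replicate block 1478 and 3250 of 16184. More genes were thus called in V4 as a whole with DESeq2 and with the block. With TMM factors, edgeR called 1819 genes higher and 1745 lower in Pico (5 members), and 3198 and 3086 in TruSeq (6 members). In the fit with the replicate block, Inhba (log2 fold change -2.60, adjusted p = 0.0179) and Inhbb (3.10, adjusted p = 0.0116) were called in V4, and Acvr2a was no longer called in TruSeq (-0.50, adjusted p = 0.0612). Thinning also called Inhba in V4 (-2.88, adjusted p = 0.0384). The causes were not tested. The number of members whose response differed between kits was 0 in every pair and alternative, the fixed replicate block included, where the value for Inhba, V4 minus TruSeq, was 1.95 (adjusted p = 0.723).

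Of the uncalled log2 fold changes, that of Id1 in Pico turned to 0.025 (edgeR with TMM factors) and 0.020 (DESeq2), that of Acvr1b in V4 to -0.052 (edgeR with library totals) and that of Smad7 in V4 to 0.22 (thinned). With a mouse left out, Id1 ranged from -0.44 to 0.27 in Pico and from -0.10 to 0.57 in V4, Smad7 from -0.056 to 0.58 in Pico and from -0.63 to 0.28 in V4, and Acvr1b from -0.61 to 1.90 in V4. Of the called values, Inhba ranged from -4.15 to -2.98 in Pico and from -5.05 to -3.47 in TruSeq, and Inhbb from 1.80 to 2.89 in Pico. Of the alternative fits of single members, 360 kept direction and side of the threshold, 8 gained a call, 9 lost it and 11 turned direction. Inhbb and Acvr1b in V4 had no value under the minimum of 10 counts, which removed them. Over all genes, TMM factors in voom moved the calls from 1228 higher and 1951 lower to 1658 and 1478 in Pico, from 649 and 1337 to 864 and 874 in V4, and from 2382 and 4232 to 3241 and 3127 in TruSeq. Over all genes, DESeq2 called a difference for 72 (V4 with TruSeq), 4 (Pico with TruSeq) and 17 (Pico with V4), and without UNT.9576 limma-voom called 59 (V4 with TruSeq) and 39 (Pico with V4).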
